A study of Mus musculus with 10 samples.

Results

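The 45 genes described here encode the working parts of the transforming growth factor beta (TGF-beta) and bone morphogenetic protein (BMP) pathways: ligands, latent binding proteins, receptors, SMAD proteins, inhibitor of DNA binding (ID) targets and antagonists. They were taken by gene name from the 24391 gene names counted in each mouse. RNA was measured in whole bilateral hippocampus of 10 male C57BL/6J mice (spelled C56BL/6J in the methods), 10 to 14 weeks old, 1 library per mouse. No drug treatment is described apart from isoflurane anesthesia for the surgery. The 4 SAH mice (numbered 1 to 4) had a subarachnoid hemorrhage made by pushing a filament through the circle of Willis, the arterial ring at the base of the brain, and were studied 4 days later; only mice whose cerebral blood flow fell at perforation were kept, so the group is a selected one. The 3 Sham mice (5 to 7) had the filament advanced without perforation, and the 3 Naive mice (8 to 10) had no surgery. The main comparison, which asks how the hippocampus differs after SAH, pooled Sham and Naive mice as 6 control mice. The group pairs were compared as well.

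TGF-beta ligands are secreted bound to a latency peptide and to latent binding proteins in the matrix, and must be released before they act. Free TGF-beta, activin and BMP ligands bring together type II and type I receptors, which phosphorylate receptor-regulated SMADs. SMAD2 and SMAD3 mainly follow TGF-beta and activin, SMAD1, SMAD5 and SMAD9 mainly follow BMPs, and both sets enter the nucleus with SMAD4. ID genes are classic BMP targets, and SMAD6 and SMAD7 are feedback inhibitors. In the brain these pathways are known for roles in vessels, meninges, astrocytes and the maturation of oligodendrocytes.

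The libraries held 19743388 to 27254655 counts, so 1 CPM (a count per 1000000, scaled by the TMM method) stood for about 20 to 27 reads. Hippocampal neuron markers were present at like summed levels in every group, 7143 to 7714 CPM in SAH and 7036 to 7531 CPM in control mice, and none of 9 was called. All 8 oligodendrocyte markers were lower after SAH. Choroid plexus markers, from tissue that lies next to the hippocampus, stood apart in SAH mouse 3 (1280 CPM summed), SAH mouse 4 (894 CPM) and Sham mouse 7 (860 CPM), against 47.9 to 227 CPM in the other mice, so results are also given without those 3 mice. In whole tissue, fewer cells of a type and less RNA per cell cannot be told apart.

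Of the 45 members, 44 had enough reads for the test, and 13 of these passed in SAH against control mice. The threshold was an adjusted p of 0.10 in edgeR's quasi-likelihood test, with Benjamini-Hochberg adjustment over all 14993 genes tested. The 11 higher after SAH were Bmp5, Bmp6, Tgfbi, Tgfbr2, Tgfbr3, Bmpr1a, Acvrl1, Smad3, Smad6, Id1 and Id3, and the 2 lower were Smad7 and Fst. This was 25.0% of tested members higher, where 3.13% of all genes tested were higher, and 4.55% lower, where 1.54% of all were lower. The members' median log2 fold change was 0.11, against -0.002 over all genes, and 31 of the 44 lay above 0. DESeq2 called 14, the same 13 and Bmp7, where it called 3.94% of all genes higher and 2.46% lower. In 5 members (Bmp6, Tgfbr3, Smad3, Smad6 and Id1) every SAH mouse was above every control mouse, and in 1 (Smad7) every SAH mouse was below; over all genes these shares were 2.83% and 2.37%. The study itself had named Bmp5, Bmp6, Bmp7, Smad3, Smad6, Smad7, Tgfbr2, Tgfbr3 and Tgfbi as changed in these same mice, so their calls are not independent evidence of a direction. For Smad7 the paper's text lists overexpression, whereas its supplement gives a negative log2 fold change, the direction found here. Among the 35 other members tested, 5 passed: Id1, Id3, Bmpr1a and Acvrl1 were higher (11.4%) and Fst was lower (2.86%). All 45 members were chosen with earlier results of these same mice known, so these calls and shares are not independent evidence either.

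**Figure D1:**
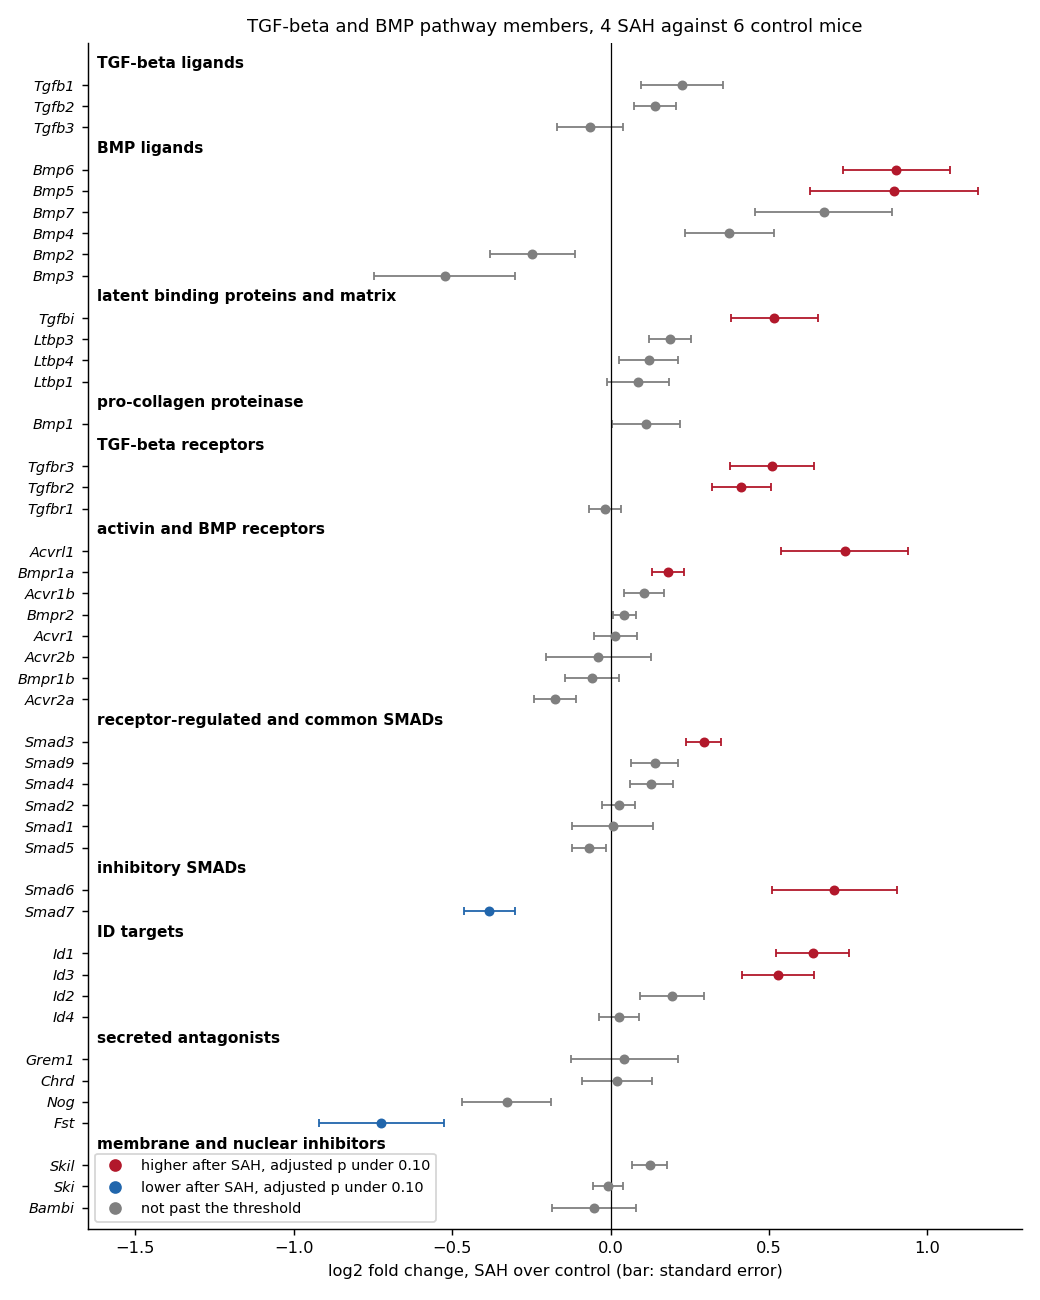
Log2 fold change of the 44 tested members in 4 SAH against 6 control mice, grouped by role, with standard errors; red marks members higher and blue members lower at an adjusted p under 0.10. The red points run from 0.18 (Bmpr1a) to 0.90 (Bmp6), and the blue points are Smad7 at -0.38 and Fst at -0.72.

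Per kilobase of exon, the scale on which different genes can be compared, the members ran from 61.5 ± 4.56 CPM per kb (SD, n = 6 control mice) for Id2, a transcriptional regulator, to 0.0435 ± 0.0145 for Ltbp2. The SKI corepressor gene Ski (34.4 ± 2.18), Id4 (33.0 ± 2.85) and the activin receptor gene Acvr1b (30.5 ± 1.6) came next. Among ligands, Tgfb2 at 13.3 ± 0.912 was far above Tgfb3 (3.45 ± 0.364) and Tgfb1 (2.06 ± 0.313), and above every BMP ligand. Bmp6 (1.80 ± 0.513) and Bmp7 (1.59 ± 0.397) overlapped in their spread, and Bmp5 was the lowest ligand at 0.377 ± 0.136. Smad3 (15.9 ± 0.543) was the highest of the SMAD genes in control mice and Smad6 (0.400 ± 0.0951) the lowest. Ltbp2, a latent binding protein gene, was the lowest member, with 4 to 11 reads in each mouse, and was too low to test. The genes called were therefore found over nearly the whole range of levels, and Bmp5, Smad6 and Fst were called on 15 to 64 reads per mouse.

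**Figure D2:**
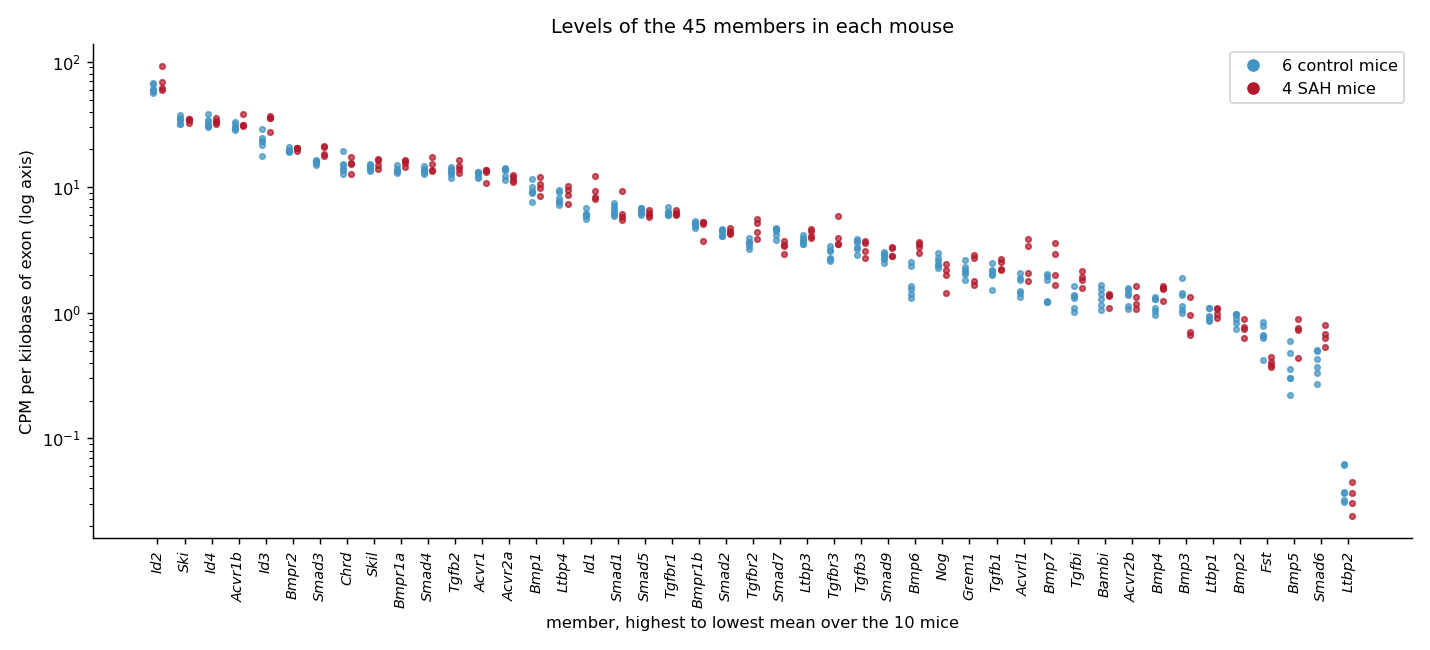
CPM per kilobase of exon of the 45 members in each of the 10 mice, on a log axis, ordered by mean level, with control mice in blue and SAH mice in red. Levels fall from Id2 to Ltbp2, and the distance between members is far larger than the distance between groups.

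None of the 3 TGF-beta ligand genes passed the test. Tgfb1, made largely by microglia and macrophages in the brain, was at 4.56 to 5.64 CPM in SAH and 3.20 to 5.19 CPM in control mice (log2 fold change 0.22 ± 0.13 SE, adjusted p = 0.403). Tgfb2 was at 61.7 to 77.6 CPM against 56.0 to 68.2 CPM (0.14 ± 0.07, adjusted p = 0.299), and Tgfb3 had a log2 fold change of -0.06 ± 0.10. The groups overlapped for each of them.

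BMP ligands held the largest differences of all roles. Bmp6, at chr13:38437585-38591597 (mm9, plus strand), encodes a ligand known from liver endothelium, where it takes part in iron control. It was at 8.51, 8.05, 7.28 and 8.75 CPM in SAH mice 1 to 4, at 3.76, 5.66 and 6.11 CPM in Sham mice 5 to 7 and at 3.91, 3.39 and 3.18 CPM in Naive mice 8 to 10. Every SAH mouse was above every control mouse, and the log2 fold change was 0.90 ± 0.17 (adjusted p = 0.0116). The call held without any 1 mouse (adjusted p at most 0.0489) and without the 3 mice high in choroid plexus markers (log2 fold change 1.04). Bmp5 (chr9:75623172-75746824, plus strand), a ligand close to BMP6 and BMP7, was at 2.27, 1.91, 1.11 and 1.84 CPM in SAH mice, 0.908, 1.51 and 1.21 CPM in Sham mice and 0.564, 0.771 and 0.764 CPM in Naive mice. SAH mouse 3 lay within the Sham values and the other 3 above all controls. Its log2 fold change was 0.90 ± 0.26 (adjusted p = 0.0989), just inside the threshold, and on leaving out single mice the call held in only 2 of 10 fits, those without SAH mouse 3 and without Sham mouse 6 (adjusted p from 0.0406 to 0.204).

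Bmp7 (chr2:172693513-172765822, minus strand), a ligand produced by meninges and choroid plexus during development, lay just outside the threshold. It was at 13.1, 10.7, 6.06 and 7.35 CPM in SAH mice, 6.69, 7.50 and 7.20 CPM in Sham mice and 4.48, 4.47 and 4.58 CPM in Naive mice. SAH mice 1 and 2 were above all others, SAH mouse 4 lay among the Sham mice, and SAH mouse 3 lay below the Sham but above the Naive mice. The log2 fold change was 0.67 ± 0.22 (adjusted p = 0.126), DESeq2 called it (adjusted p = 0.0499), and edgeR did too without SAH mouse 3 (adjusted p = 0.0392) and, with all 10 mice, in a 3-group fit that averaged the Sham and Naive means (0.71, adjusted p = 0.0590). Without the 3 mice high in choroid plexus markers the log2 fold change was 1.09 ± 0.18 (adjusted p = 0.00506). That fit keeps only SAH mice 1 and 2, the highest in Bmp7, so its larger value follows from the mice kept and is not added evidence. The remaining ligands did not pass: Bmp4 at 0.38 ± 0.14 (adjusted p = 0.188), Bmp2 at -0.25 ± 0.13 (adjusted p = 0.373) and Bmp3 at -0.52 ± 0.22 (adjusted p = 0.250). Bmp4 and Bmp3 had an unadjusted p of 0.0181 and 0.0344, and the groups overlapped in both. Bmp3 was called lower without SAH mouse 1 (-0.75, adjusted p = 0.0847).

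Of the matrix genes, Tgfbi (chr13:56710964-56740700, plus strand), a secreted adhesion protein induced by TGF-beta, was higher after SAH. It was at 4.88, 4.23, 5.20 and 5.72 CPM in SAH mice, 3.63, 3.71 and 4.34 CPM in Sham mice and 3.54, 2.73 and 2.93 CPM in Naive mice. Only SAH mouse 2, below Sham mouse 7, overlapped the controls. The log2 fold change was 0.52 ± 0.14 (adjusted p = 0.0674), and the call held only without SAH mouse 1, SAH mouse 2, Sham mouse 6 or Sham mouse 7 (adjusted p from 0.0397 to 0.199 over the 10 fits). The latent binding protein genes Ltbp1, Ltbp3 and Ltbp4 had log2 fold changes of 0.09 to 0.19 and did not pass, the nearest being Ltbp3 (adjusted p = 0.164). Bmp1, which despite its name encodes a procollagen proteinase, had a log2 fold change of 0.11 ± 0.11.

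Of the 3 TGF-beta receptor genes, 2 were higher after SAH and the type I receptor gene Tgfbr1 was not (log2 fold change -0.02 ± 0.05). Tgfbr2 (chr9:115996813-116084481, minus strand), the type II receptor that binds ligand first, was at 21.2, 18.4, 24.8 and 26.8 CPM in SAH mice, 17.5, 16.4 and 17.4 CPM in Sham mice and 15.5, 18.7 and 17.1 CPM in Naive mice. SAH mouse 2 lay below Naive mouse 9 and the other SAH mice were above all controls (log2 fold change 0.41 ± 0.09, adjusted p = 0.0326). The call was lost only without SAH mouse 4 (adjusted p = 0.127). Tgfbr3 (chr5:107535589-107718614, minus strand), the co-receptor betaglycan, was at 21.3, 21.5, 35.6 and 23.9 CPM in SAH mice and at 15.8 to 20.8 CPM in control mice. The groups did not overlap, SAH mouse 3 was far above the rest, and the log2 fold change was 0.51 ± 0.13 (adjusted p = 0.0625). It fell to 0.32 without SAH mouse 3, where the call held, and the call was lost without SAH mouse 4, any 1 Naive mouse or Sham mouse 5 (adjusted p up to 0.145).

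Of the 8 activin and BMP receptor genes, 2 passed. Acvrl1 (chr15:100958953-100975767, plus strand) encodes ALK1, a type I receptor of endothelium. It was at 6.82, 7.83, 12.9 and 14.7 CPM in SAH mice, 5.70, 7.13 and 5.47 CPM in Sham mice and 5.04, 7.87 and 6.88 CPM in Naive mice. SAH mice 3 and 4 were well above all others, whereas SAH mice 1 and 2 lay within the control values. The log2 fold change was 0.74 ± 0.20 (adjusted p = 0.0716), and the call held only without SAH mouse 1, SAH mouse 2, Naive mouse 9 or Sham mouse 6. Bmpr1a (chr14:35224254-35315732, minus strand), the widely expressed BMP type I receptor ALK3, showed the smallest difference called, 85.7 ± 4.93 CPM (SD, n = 4) against 75.6 ± 4.13 CPM (n = 6). Its SAH mice, at 88.2, 79.2, 90.6 and 84.9 CPM, overlapped the controls only through SAH mouse 2, below Sham mouse 7 at 83.2 CPM (log2 fold change 0.18 ± 0.05, adjusted p = 0.0809, kept only without SAH mouse 2 or Sham mouse 7). Acvr2a, an activin type II receptor gene, did not pass (-0.17 ± 0.07, adjusted p = 0.194), and Acvr1, Acvr1b, Acvr2b, Bmpr1b and Bmpr2 lay between -0.06 and 0.11.

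Of the 6 receptor-regulated and common SMAD genes, only Smad3 passed. Smad3 (chr9:63494574-63605801, minus strand) was at 89.6, 93.0, 109 and 107 CPM in SAH mice, 84.7, 82.5 and 79.2 CPM in Sham mice and 77.0, 80.7 and 82.6 CPM in Naive mice. The groups did not overlap, and the difference, though modest at 0.29 ± 0.06 on the log2 scale, was larger than the spread between mice (adjusted p = 0.0125) and held without any 1 mouse. It was lost without the 3 mice high in choroid plexus markers (0.17 ± 0.05, adjusted p = 0.148). Smad2, the other TGF-beta SMAD gene, had a log2 fold change of 0.03 ± 0.05, the common Smad4 one of 0.13 ± 0.07, and the BMP SMAD genes Smad1, Smad5 and Smad9 ones of 0.01 ± 0.13, -0.07 ± 0.05 and 0.14 ± 0.07.

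The 2 inhibitory SMAD genes went opposite ways. Smad6 (chr9:63800883-63869866, minus strand), which mainly restrains BMP signals and lies 195 kb from Smad3, was at 2.03, 1.58, 2.37 and 1.88 CPM in SAH mice, 1.49, 1.51 and 0.805 CPM in Sham mice and 1.09, 0.977 and 1.27 CPM in Naive mice. The groups did not overlap, but SAH mouse 2 and Sham mouse 6 nearly met, at 43 and 41 reads. The log2 fold change was 0.71 ± 0.20 (adjusted p = 0.0810), kept only without SAH mouse 2, Sham mouse 5 or Sham mouse 6. Smad7, which restrains both TGF-beta and BMP signals, was at 15.4, 15.1, 13.0 and 16.5 CPM in SAH mice, 16.9, 20.6 and 18.5 CPM in Sham mice and 20.6, 20.1 and 21.1 CPM in Naive mice. Every SAH mouse was below every control mouse, with Sham mouse 5 the nearest, and the log2 fold change was -0.38 ± 0.08 (adjusted p = 0.0224). This call held without any 1 mouse (adjusted p at most 0.0638) and without the 3 mice high in choroid plexus markers (-0.38 ± 0.09).

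Id1 and Id3 were higher after SAH, and Id2 and Id4 did not pass. These genes encode helix-loop-helix proteins that block the DNA binding of other factors and keep precursor cells from maturing. Id1 (chr2:152561987-152563146, plus strand) was at 7.50, 7.87, 11.4 and 8.71 CPM in SAH mice, 5.20, 5.74 and 6.36 CPM in Sham mice and 5.68, 5.66 and 5.48 CPM in Naive mice. In the main edgeR fit it was the member with the lowest adjusted p, and every SAH mouse was above every control mouse (log2 fold change 0.64 ± 0.12, adjusted p = 0.00961). DESeq2 gave Bmp6 a lower adjusted p than Id1 (5.86e-05 against 8.70e-05). Id3 (chr4:135699737-135701307, plus strand) was at 35.0, 26.1, 34.0 and 33.7 CPM in SAH mice, 22.1, 22.1 and 27.7 CPM in Sham mice and 20.8, 17.0 and 23.6 CPM in Naive mice. SAH mouse 2 lay below Sham mouse 7, and the other 3 were above all controls (log2 fold change 0.53 ± 0.11, adjusted p = 0.0243). Both calls held without any 1 mouse and without the 3 mice high in choroid plexus markers (0.47 ± 0.10 and 0.52 ± 0.11). Id2 was at 0.19 ± 0.10 on the log2 scale (adjusted p = 0.356), with SAH mouse 3 at 117 CPM against 76.0 to 87.7 CPM in the other SAH mice, and Id4 at 0.03 ± 0.06.

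**Figure D3:**
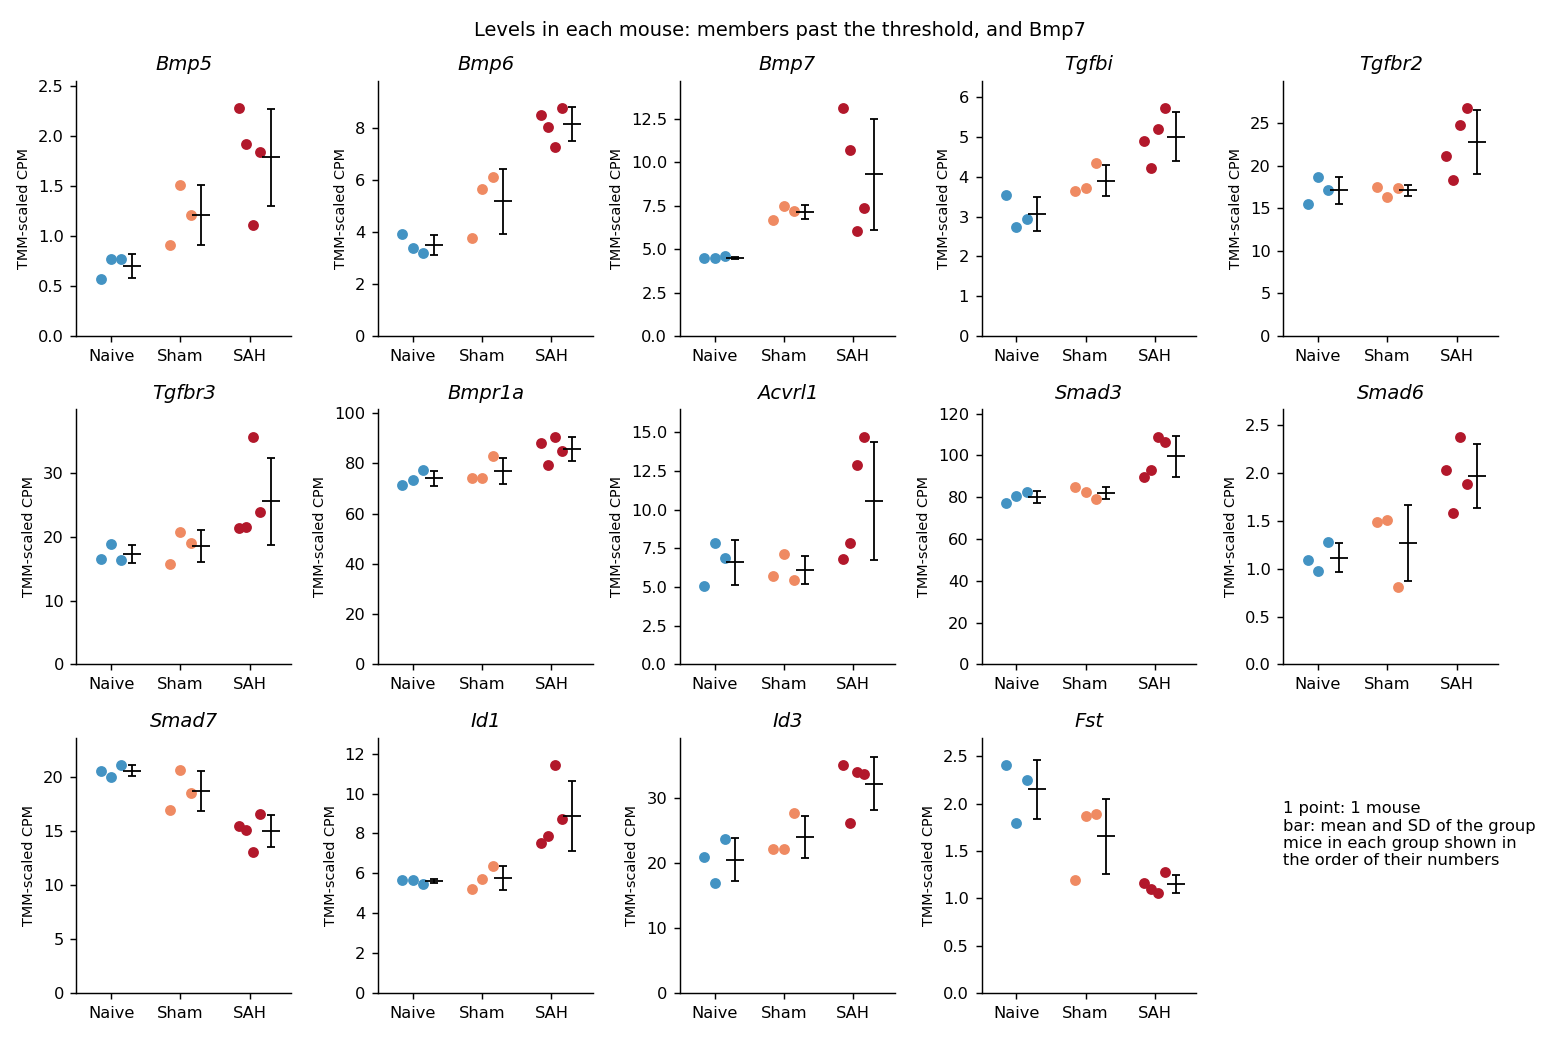
TMM-scaled CPM in each mouse for the 13 members called and Bmp7, by group, with the mean and SD of each group beside the points and axes starting at 0. Groups are apart for Bmp6, Tgfbr3, Smad3, Smad6, Smad7 and Id1, SAH mice 3 and 4 stand above the rest in Acvrl1, and SAH mice 1 and 2 stand above the rest in Bmp7.

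The promoters of Smad6, Id3, Bmp6 and Id2 show what SMAD-binding letters these genes carry at their starts, and were chosen so that each motif searched is seen at least once. Smad6, Id3 and Bmp6 were called and Id2 was not; other called members with a motif (Bmp5, Tgfbr2, Tgfbi and Bmpr1a) are not printed. Each runs from 250 bases before to 50 after the start (RefSeq, GRCm38.p6, a later build than the mm9 of the counts) and reads 5′ to 3′ on the gene's own strand. The windows are chr9:64022010-64022309 (minus strand) for Smad6, chr4:136143572-136143871 (plus) for Id3, chr13:38345466-38345765 (plus) for Bmp6 and chr12:25096043-25096342 (minus) for Id2. Capitals mark the SMAD palindrome in Smad6, the SMAD box, in either orientation, in Id3 and Bmp6, and the GC-rich BMP-responsive element in Id2.
Smad6: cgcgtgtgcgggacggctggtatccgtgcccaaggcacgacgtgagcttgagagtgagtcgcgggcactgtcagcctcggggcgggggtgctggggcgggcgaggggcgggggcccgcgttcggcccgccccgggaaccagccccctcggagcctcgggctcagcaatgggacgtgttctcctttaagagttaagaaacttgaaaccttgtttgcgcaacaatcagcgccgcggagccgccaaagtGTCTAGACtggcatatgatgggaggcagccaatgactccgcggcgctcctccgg
Id3: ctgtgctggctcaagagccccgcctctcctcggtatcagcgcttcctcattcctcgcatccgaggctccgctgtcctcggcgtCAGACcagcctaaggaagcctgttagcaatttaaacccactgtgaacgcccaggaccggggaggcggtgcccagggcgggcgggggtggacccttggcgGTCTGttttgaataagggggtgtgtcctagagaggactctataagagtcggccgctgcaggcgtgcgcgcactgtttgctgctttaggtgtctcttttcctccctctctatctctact
Bmp6: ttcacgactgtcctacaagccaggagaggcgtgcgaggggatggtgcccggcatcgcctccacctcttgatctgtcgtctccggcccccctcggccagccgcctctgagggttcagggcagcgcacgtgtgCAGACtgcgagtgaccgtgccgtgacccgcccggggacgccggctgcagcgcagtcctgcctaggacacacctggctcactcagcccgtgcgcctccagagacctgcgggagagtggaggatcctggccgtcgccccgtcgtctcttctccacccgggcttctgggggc
Id2: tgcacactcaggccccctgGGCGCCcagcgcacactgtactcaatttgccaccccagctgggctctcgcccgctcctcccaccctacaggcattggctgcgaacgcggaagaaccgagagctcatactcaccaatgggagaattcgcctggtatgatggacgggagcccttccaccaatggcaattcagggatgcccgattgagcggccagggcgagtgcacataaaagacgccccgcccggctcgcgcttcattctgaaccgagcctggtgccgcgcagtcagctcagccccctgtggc

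The motifs searched, on both strands, were the palindrome GTCTAGAC of SMAD3 and SMAD4, the GC-rich element GGCGCC, and the SMAD box CAGAC, whose reverse complement is GTCTG. The palindrome holds the first 4 letters of GTCTG and no full SMAD box. RefSeq windows were found for 30 of the 45 members, 38 windows in all. The set of windows used held no entry for Acvrl1, Bambi, Bmp1, Bmp2, Bmp3, Bmp7, Fst, Id1, Nog, Skil, Smad2, Smad4, Smad7, Tgfb3 and Tgfbr3. The palindrome was in 0.213% of 32851 windows of all genes and, of the members, in Smad6 alone, at position 247 of its window. The GC-rich element was in 11.9% of all windows and in 15 of the 38 windows of members, which belong to 13 genes, Id2, Id4, Bmpr1a and Tgfbi among them. The SMAD box was in 49.6% of all windows and in 18 of the 38 (47.4%). These are matches of letters in short windows, and no binding was measured.

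Of the 4 secreted antagonists, only Fst passed. Fst (chr13:115242470-115249159, minus strand) encodes follistatin, which binds activins and, more weakly, some BMPs. It was at 1.16, 1.10, 1.06 and 1.28 CPM in SAH mice, 1.20, 1.87 and 1.89 CPM in Sham mice and 2.41, 1.80 and 2.25 CPM in Naive mice. SAH values were close together, and only Sham mouse 5 came down among them. The log2 fold change was -0.72 ± 0.20 (adjusted p = 0.0718), on 21 to 64 reads per mouse, and the call held in 1 of the 10 fits, the one without Sham mouse 5 (adjusted p = 0.0253; up to 0.163 in the others). The BMP antagonist genes Nog, Chrd and Grem1 had log2 fold changes of -0.33 ± 0.14 (adjusted p = 0.251), 0.02 ± 0.11 and 0.04 ± 0.17. The membrane decoy receptor gene Bambi and the SMAD corepressor genes Ski and Skil did not pass, at -0.05 ± 0.13, -0.01 ± 0.05 and 0.12 ± 0.06.

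Split into the surgery and the hemorrhage, the group pairs gave fewer calls, and they share mice with each other and with the main comparison. In SAH against Naive mice 9 members passed. The 7 higher were Bmp5, Bmp6, Bmp7, Tgfbi, Smad3, Id1 and Id3, where 2.03% of all genes were higher, and the 2 lower were Smad7 and Fst, where 0.965% were lower. DESeq2 called 13 in this pair, the same 9 together with Tgfbr2, Tgfbr3 and Bmpr1a (higher) and Acvr2a (lower), where it called 2.87% of all genes higher and 1.68% lower. In SAH against Sham mice edgeR called 0 of 44, where 0.529% of all genes were called higher and 0.192% lower, and 13 (29.5%) had an unadjusted p under 0.05, as had 9.69% of all genes. DESeq2 called 6 there (Bmp6, Tgfbr2, Acvrl1, Smad3, Id1 and Id3, all higher), where it called 1.42% of all genes higher and 0.468% lower. The nearest in edgeR were Id1 (log2 fold change 0.62 ± 0.14, adjusted p = 0.108) and Bmp6 (0.65 ± 0.16, adjusted p = 0.113). In Sham against Naive mice neither edgeR nor DESeq2 called any member (edgeR called 0.00661% of all genes higher and 0.0% lower, DESeq2 0.0102% and 0.0%). The 3 members with an unadjusted p under 0.05 in that pair (6.82%, against 2.02% of all genes) were Bmp5, Bmp6 and Bmp7.

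These 3 ligands were thus ordered Naive, Sham, SAH in their means. Bmp6 was at 3.50 ± 0.37 CPM in Naive (SD, n = 3), 5.18 ± 1.25 CPM in Sham (n = 3) and 8.15 ± 0.65 CPM in SAH mice (n = 4). Sham over Naive, its log2 fold change was 0.56 ± 0.18 (unadjusted p = 0.00741), and SAH over Sham it was 0.65 ± 0.16. Bmp7 was at 4.51 ± 0.063, 7.13 ± 0.41 and 9.31 ± 3.20 CPM, and its Sham over Naive value was 0.66 ± 0.23 (unadjusted p = 0.0149). For Bmp5 the Sham over Naive value was 0.80 ± 0.31 (unadjusted p = 0.0244) and that of SAH over Sham was 0.56 ± 0.26. None of these Sham over Naive differences passed adjustment (each adjusted p = 1.00). Other called members had the same order with smaller Sham over Naive values. Tgfbi had 0.34 ± 0.16, beside 0.36 for SAH over Sham. Id3 had 0.22 ± 0.14, Smad6 0.18 ± 0.27, Tgfbr3 0.11 ± 0.18 and Bmpr1a 0.06 ± 0.07. Sham and Naive mice did not overlap in Bmp5, Bmp7 and Tgfbi, 3 of 44 tested members. With 3 mice on each side such a separation says little, and its share over all genes was not counted. Fst (-0.38 ± 0.22) and Smad7 (-0.14 ± 0.10) had the reverse order, lowest after SAH. Id1, Smad3, Tgfbr2 and Acvrl1 had Sham over Naive values of 0.04 ± 0.16, 0.04 ± 0.07, 0.00 ± 0.13 and -0.10 ± 0.27, beside SAH over Sham values of 0.62, 0.28, 0.41 and 0.79.

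**Figure D4:**
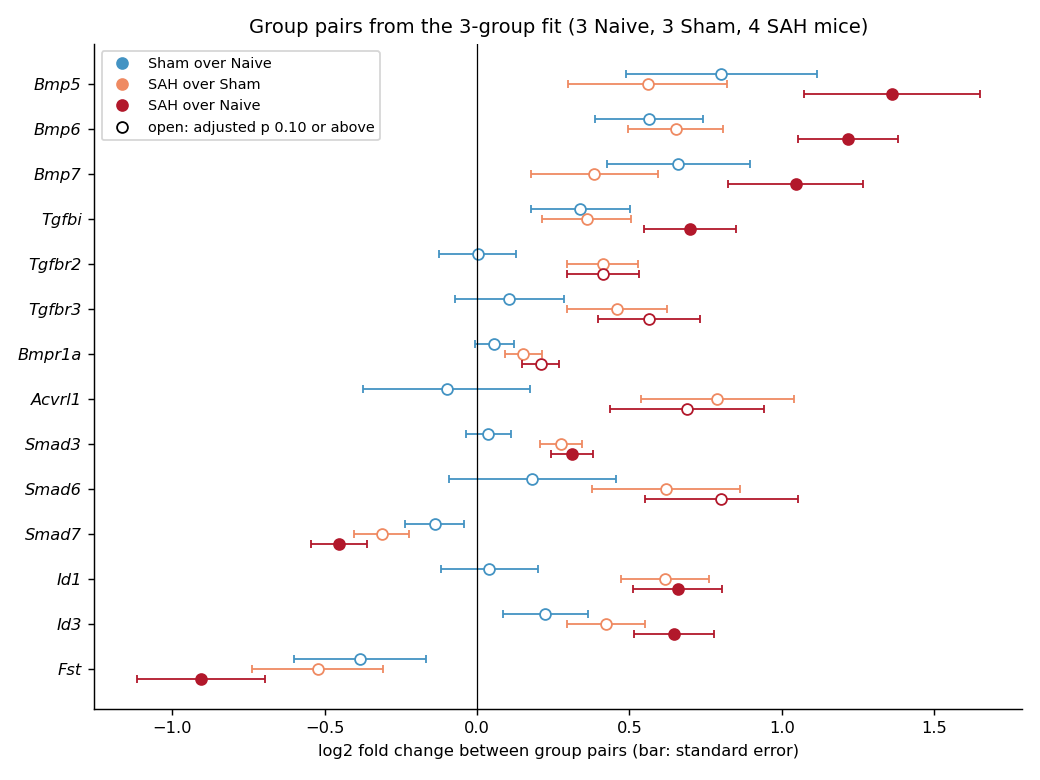
Log2 fold changes of the 13 members called and Bmp7 between group pairs, with standard errors, from a fit to 3 Naive, 3 Sham and 4 SAH mice; filled points passed an adjusted p of 0.10. Bmp5, Bmp6 and Bmp7 have Sham over Naive values of 0.56 to 0.80, Tgfbi, Id3 and Smad6 of 0.34, 0.22 and 0.18, Fst of -0.38, and Id1, Smad3 and Tgfbr2 of 0.00 to 0.04; none of these passed.

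Markers of other cell types moved with several members. Of 14 meningeal fibroblast markers, such as the collagen genes Col1a1 and Col1a2, 10 were higher after SAH and 0 lower, and their summed level was 415, 383, 216 and 295 CPM in SAH mice 1 to 4, 197 to 208 CPM in Sham mice and 157 to 166 CPM in Naive mice. Bmp7 and Bmp5 were likewise highest in SAH mouse 1 and lowest, among SAH mice, in SAH mouse 3, and Sham mice were above Naive mice in the marker sum as in Bmp7. Of 10 endothelial markers, 3 were higher (Pecam1, Cdh5 and Flt1), and their sum was 205, 253, 393 and 373 CPM in SAH mice against 183 to 263 CPM in control mice. Acvrl1, Tgfbr2 and Eng were also highest in SAH mice 3 and 4, and so were Tgfbr3, Smad3, Tgfbi and Id1. SAH mice 3 and 4 were also the SAH mice highest in choroid plexus markers (1280 and 894 CPM summed). Among the SAH mice the endothelial and choroid plexus patterns therefore cannot be told apart. Neither the meningeal nor the endothelial list had a marker at 0 in all mice. The part of these cell types in the members' differences was not tested. Mural cell markers were higher in 4 of 9, with sums of 186 to 251 CPM against 135 to 170 CPM, border macrophage and monocyte markers in 3 of 4 tested of 7 listed (13.9 to 17.6 CPM against 4.84 to 8.73 CPM) and microglia markers in 3 of 9 (480 to 585 CPM against 438 to 496 CPM). Of 9 astrocyte markers only Gfap was called. None of 12 choroid plexus, 5 ependymal or 5 oligodendrocyte precursor markers was called. All 12 choroid plexus markers nevertheless had log2 fold changes above 0 (median 1.16). Their sums varied widely between mice, at 107 to 1280 CPM in SAH against 47.9 to 860 CPM in control mice. The oligodendrocyte marker sum was 4488 to 5725 CPM after SAH against 6563 to 9146 CPM.

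**Figure D5:**
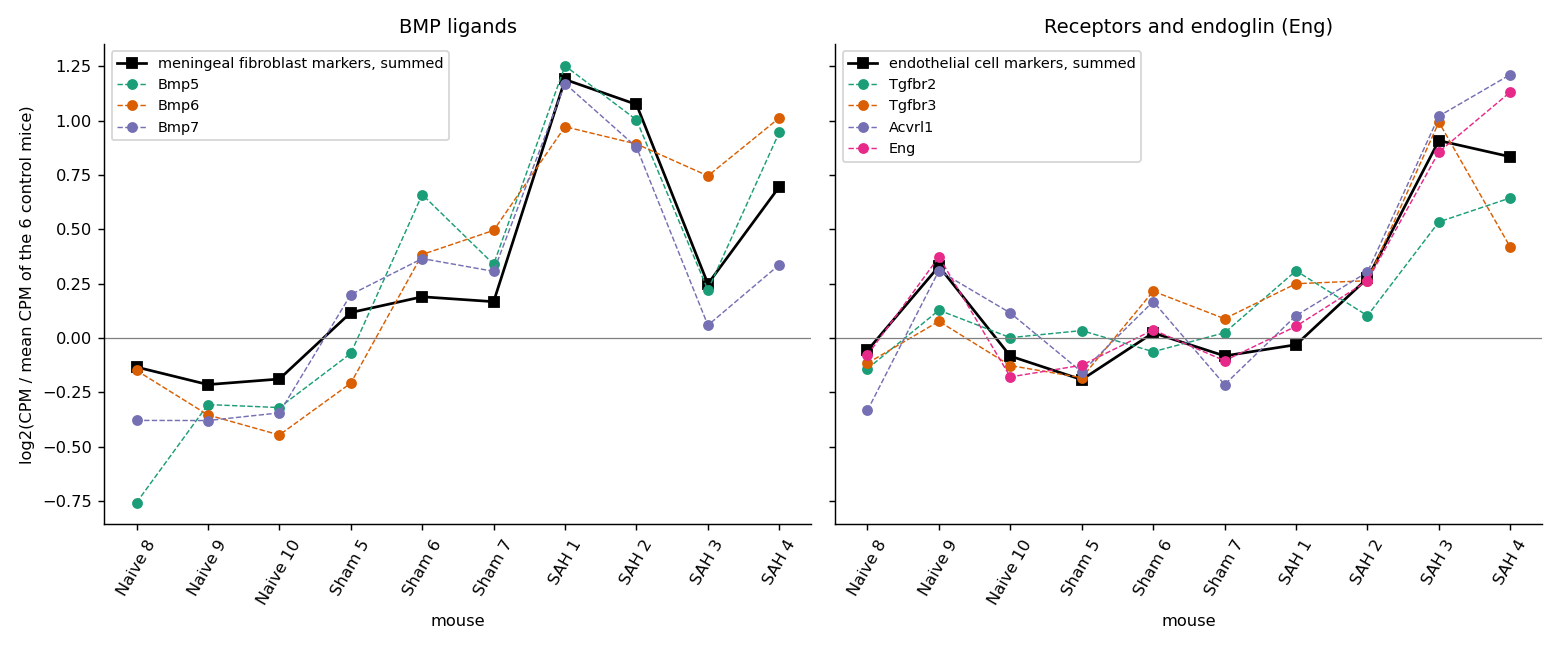
Log2 ratio of each mouse to the mean of the 6 control mice, for Bmp5, Bmp6 and Bmp7 beside the summed meningeal fibroblast markers (left) and for Tgfbr2, Tgfbr3, Acvrl1 and Eng beside the summed endothelial markers (right). The left-hand marker sum is highest in SAH mice 1 and 2 (415 and 383 CPM) and the right-hand one in SAH mice 3 and 4 (393 and 373 CPM). SAH mice 3 and 4 are also the SAH mice highest in choroid plexus markers, which are not drawn. Bmp6 is high in all 4 SAH mice.

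Without the 3 mice high in choroid plexus markers, which leaves 2 SAH and 5 control mice, 6 members passed: Bmp5, Bmp6, Bmp7, Id1 and Id3 were higher (1.7% of all genes) and Smad7 was lower (0.483%). SAH mice 3 and 4, left out here, were also highest in endothelial markers (393 and 373 CPM summed). SAH mice 1 and 2, kept here, were highest in meningeal fibroblast markers (415 and 383 CPM). The changes in calls cannot be tied to choroid plexus alone. Of the receptor genes called, all 4 lost their calls, and 3 of them also became smaller, Acvrl1 going from 0.74 to 0.19 ± 0.15, Tgfbr2 from 0.41 to 0.22 ± 0.08 and Tgfbr3 from 0.51 to 0.28 ± 0.10 on the log2 scale. Smad6 (0.49 ± 0.23), Tgfbi (0.45 ± 0.16) and Smad3 (0.17 ± 0.05) kept their direction without passing. Bmpr1a (0.18 ± 0.05) and Fst (-0.75 ± 0.27) kept their size as well, also without passing.

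Beyond the 45 members, 75 other genes of the pathways were examined, 55 of which could be tested. Of these, 4 passed and were higher (Eng, Emilin1, Lrrc32 and Nbl1; 7.27%, against 3.13% of all genes), none was lower, and their median log2 fold change was 0.07. Eng, the endothelial co-receptor endoglin that works with ALK1, was at 12.6, 14.5, 21.9 and 26.5 CPM in SAH mice and 10.7 to 15.7 CPM in control mice, high in the same 2 mice as Acvrl1 (log2 fold change 0.65 ± 0.18, adjusted p = 0.0779). Emilin1, a matrix protein that holds back the processing of TGF-beta precursors, was at 2.78 to 3.82 CPM against 1.77 to 2.61 CPM with no overlap (0.63 ± 0.14, adjusted p = 0.0318). Lrrc32, the cell-surface anchor GARP of latent TGF-beta, was at 2.54 to 3.29 CPM against 1.58 to 2.21 CPM (0.49 ± 0.14, adjusted p = 0.0797), and Nbl1, a BMP antagonist, had the smallest difference at 0.20 ± 0.05 (adjusted p = 0.0667). Of the 24 other ligand genes, such as inhibins and growth differentiation factors, 10 were high enough to test and none passed (median -0.08). None of 9 other target genes passed either, with a median of 0.36. In that list Cdkn1a, the cell cycle inhibitor p21, reached 67.6 CPM in SAH mouse 3, where all other mice had 5.66 to 11.2 CPM. The call of Emilin1 held without any 1 mouse, that of Nbl1 in 4, that of Eng in 3 and that of Lrrc32 in 1 of the 10 fits.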

How the data were processed

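Whole hippocampal RNA of 10 mice (4 SAH, 3 Sham, 3 Naive) was sequenced from ribosome-depleted, stranded libraries. The authors aligned the 50-base read pairs to mm9 with STAR and deposited raw read counts per gene name from featureCounts 1.6.2, counted by strand, with the length of each gene's exons; antisense neighbors such as that of Id4 were therefore counted apart. GEO's labels gave the groups. Each mouse is 1 replicate, and no pair of libraries within a group agreed within sampling noise. From the counts, edgeR 4.0.16 (R 4.3.3) computed TMM-scaled CPM, fold changes with standard errors, and quasi-likelihood tests over all genes that passed its filter for low counts (minimum count 10, total 15; 14993 genes for SAH against control, 15134 for the group pairs), with Benjamini-Hochberg adjustment and the study's threshold of 0.10. SAH against control used a 2-group fit, group pairs a 3-group fit, each over all 10 mice. DESeq2, run here as version 1.42.0, was an alternative, and the authors used DESeq2 without naming a version. Other alternatives were other scalings, filters and thresholds, a 3-group fit that averaged Sham and Naive, and leaving out each mouse. The edgeR and DESeq2 steps were tested on simulated data. The 45 members, the 75 other pathway genes, the marker lists and the motifs were chosen with earlier results of these data known, and all members were accounted for. Motifs were counted in RefSeq promoter windows of 300 bases. Depth limits the low genes: 15 reads, the fewest of a called member, carry a large counting error.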

Additional observations from a re-analysis of the deposited data

Results flagged for a closer look

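Among 88 checks, 1 for each tested member in the SAH and in the control mice, 4 groups held a mouse far from the rest of its group by Dixon's criterion, and chance gives about 1 in 20. In SAH mouse 3, Bmpr1b was at 21.8 CPM against 30.0 to 31.0 CPM in the other SAH mice, Acvr1b at 125.2 CPM against 101.6 to 102.2 CPM, and Smad1 at 28.2 CPM against 16.8 to 18.7 CPM. None of these 3 genes passed the test in SAH against control mice. In SAH mouse 2, Id3 was at 26.1 CPM against 33.7 to 35.0 CPM in the other SAH mice, and the call of Id3 held with and without that mouse.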

How the results depend on the processing

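No called member changed direction under any of the alternatives run. Across 880 values of tested members under alternatives, 36 changed sign, all of members that had not passed. In SAH against control mice, the 13 calls became 6 at an adjusted p under 0.05 and 1 (Id1) under 0.01. They became 5 to 12 when 1 mouse was left out. Without the 3 mice high in choroid plexus markers, an alternative chosen after seeing the data, they became 6. Other scalings and filters and DESeq2 gave 12 to 14. Over all genes, the 470 higher and 231 lower became 277 and 92 at 0.05 and 100 and 33 at 0.01. Without those 3 mice they became 257 and 73. Without SAH mouse 4 there were 5 calls, without Naive mouse 8 or 10 there were 6, without Naive mouse 9 there were 7 and without Sham mouse 5 there were 8; calls over all genes fell too, from 470 higher and 231 lower to 223 and 85 without SAH mouse 4 and 271 and 90 without Naive mouse 8. In SAH against Sham mice, the 0 calls became 6 with DESeq2 and 3 without a filter, and 0 to 4 when 1 mouse was left out (2 without SAH mouse 1 or 3, 4 without SAH mouse 2). All genes went from 80 higher and 29 lower to 225 and 74 with DESeq2 and 134 and 48 without a filter. They went to 129 and 55, 156 and 42, and 166 and 49 without SAH mice 1, 2 and 3. In SAH against Naive mice, the 9 calls became 13 with DESeq2, 1 at an adjusted p under 0.01, and 1 to 12 when 1 mouse was left out (2, 1 and 4 without Naive mice 8, 9 and 10); all genes went from 307 higher and 146 lower to 59 and 16 at 0.01, 87 and 22 without Naive mouse 8 and 108 and 41 without Naive mouse 9. The 4 calls among other pathway genes became 1 to 7 when 1 mouse was left out (7 without SAH mouse 1 or 2, 1 without SAH mouse 3 or Naive mice 8 or 10, and 2 without SAH mouse 4, Naive mouse 9 or Sham mice 5 or 6). The cause of these moves was not tested. No paired analysis was possible because replicate numbers are not shared between groups. The paper states that mice of the same batch were assigned to the groups at random. Surgery days and litters are not given, so whether they differed between groups cannot be told. The p-values rest on the spread between these mice alone.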
